A study of Mus musculus with 8 samples.

Results

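Trp53, the mouse gene of the tumour suppressor p53, and 8 of its target genes (Mdm2, Ccng1, Fas, Trp53inp1, Phlda3, Eda2r, Aen and Sesn1) were read in pro-B cells labelled as wild type or as knockout for CD25. These 9 genes were chosen by name, as rows of a count table of 55487 genes. CD25, the product of Il2ra, is the subunit that gives the interleukin-2 receptor its high affinity. Pro-B cells are B lineage cells that are still rearranging the immunoglobulin heavy chain genes. RNA was sequenced from 8 mouse libraries, of which 4 were labelled as CD25 knockout and 4 as wild type. The labels used here name the cell type and the genotype, and give no age, strain, allele, sort or pooling of animals. The 4 samples of a group are not said to come from separate mice, so the p-values reflect only how these samples vary, part of which may be technical. Libraries with and without Y-linked RNA stood in both groups, so neither group came from 1 animal alone.

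p53 is a transcription factor that is kept at a low level by the ubiquitin ligase MDM2. DNA damage and other stresses activate kinases that release it from this restraint. It then raises genes of cell cycle arrest, repair and apoptosis, and Mdm2 itself, which closes a negative feedback loop. In developing B cells the pathway is known for its response to the DNA breaks of V(D)J recombination and to replication stress. p53 activity is set mainly through the stability of the protein, which RNA counts do not measure.

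Library totals lay between 43974037 and 57988772 counts. Levels are given as CPM, counts divided by the library total after TMM scaling, and levels of different genes are compared only per kilobase of exon. Il2ra, the gene named by the genotype, did not differ past the threshold (140.4 to 216 CPM in wild type, 145 to 244 CPM in labelled knockout, adjusted p = 0.849 by edgeR's quasi-likelihood test). Its exon-wide count does not show whether particular exons were missing, so that group is called labelled knockout. All 14 B lineage markers looked at passed the count filter in these libraries, with summed levels of 8899 to 10489 CPM in wild type and 9037 to 10657 CPM in labelled knockout. Wild type 2 and labelled knockout 2 and 4 carried Y-linked transcripts (496 to 506 CPM), and wild type 2 also held 61.6 CPM of Xist. Summed markers of S phase and mitosis ran from 3460 to 4024 CPM in wild type and from 1687 to 3339 CPM in labelled knockout, lowest in labelled knockout 3 and 1. Erythroid markers ran from 2898 to 8640 CPM and from 268 to 2281 CPM, with Ahsp at 0 in every library. Neutrophil markers ran from 254 to 557 CPM and from 120 to 484 CPM, and monocyte markers from 126 to 221 CPM and from 38.5 to 162 CPM. The part of these cells in the values below was not tested. In bulk RNA, fewer cells of a type and less RNA per cell cannot be told apart.

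The sequences before the transcription starts of these genes are shown because p53 acts by binding DNA. RefSeq (GRCm38.p6, the same base assembly as the mm10 build of the counts) gave windows of 300 bases, 250 before and 50 after a start, for 8 of the 9 genes; none was printed for Trp53inp1. They were searched on both strands for the p53 consensus decamer, of which a full p53 response element holds a pair. A decamer was found in the windows of 5 of these 8 genes and in 9.55% of the 27025 genes with a window. Each is printed 5′ to 3′ on the strand of its gene with its neighbours, with the decamer in capitals.
Trp53, chr11:69580274-69580303, plus strand: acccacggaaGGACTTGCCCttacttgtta
Mdm2, chr10:117710925-117710954, minus strand: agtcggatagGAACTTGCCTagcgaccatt
Ccng1, chr11:40755452-40755481, minus strand: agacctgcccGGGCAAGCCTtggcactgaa
Aen, chr7:78895927-78895956, plus strand: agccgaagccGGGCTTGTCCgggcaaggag
Sesn1, chr10:41887256-41887285, plus strand: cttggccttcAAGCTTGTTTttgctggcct

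The decamers of Trp53, Mdm2 and Ccng1 began at positions -75, -186 and -185 from the start, outside any annotated gene. The decamer of Sesn1 lay at position -173 from the inner of its 2 listed starts, in an intron of the longer transcript. That of Aen fell in the annotated untranslated part of its leader exon. Each was found as a match of letters, and binding by p53 was not measured in these data. The windows of Fas, Phlda3 and Eda2r held none, which says only that these letters were absent there. The stretch before the start of Mdm2 (chr10:117710759-117711008, minus strand) is printed because Mdm2 is the feedback target and had the largest fold change among the 7 tested of these 9 genes.
Mdm2: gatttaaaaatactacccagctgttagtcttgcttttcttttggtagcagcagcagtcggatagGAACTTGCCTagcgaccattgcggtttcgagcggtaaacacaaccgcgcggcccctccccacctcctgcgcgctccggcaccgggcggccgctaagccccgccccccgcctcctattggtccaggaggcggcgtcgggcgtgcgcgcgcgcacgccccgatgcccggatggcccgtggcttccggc
As background, the well studied p53-responsive promoter of Mdm2 lies inside the gene, outside this window.

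The transcripts of the pathway were present at very different levels. Trp53inp1, a stress-induced cofactor that promotes p53 phosphorylation and autophagy, was the highest at 108 ± 14.3 CPM per kilobase (SD over 8 libraries), above Trp53 at 52.7 ± 7.91 in all 8 libraries. Ccng1 followed at 41.6 ± 5.14, Mdm2 at 29.2 ± 9.89 and Sesn1 at 20.9 ± 7.59 CPM per kilobase. The ranges of Trp53, Ccng1, Mdm2, Sesn1 and Aen overlapped between each neighbouring pair of this order. Aen stood at 9.81 ± 1.11 and Fas at 1.42 ± 0.347 CPM per kilobase, and their ranges were apart. Phlda3 and Eda2r, at 0.116 ± 0.0881 and 0.00703 ± 0.0187, were near the limit of detection. These 2 fell under the low-count filter, and the other 7 were tested.

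**Figure D1:**
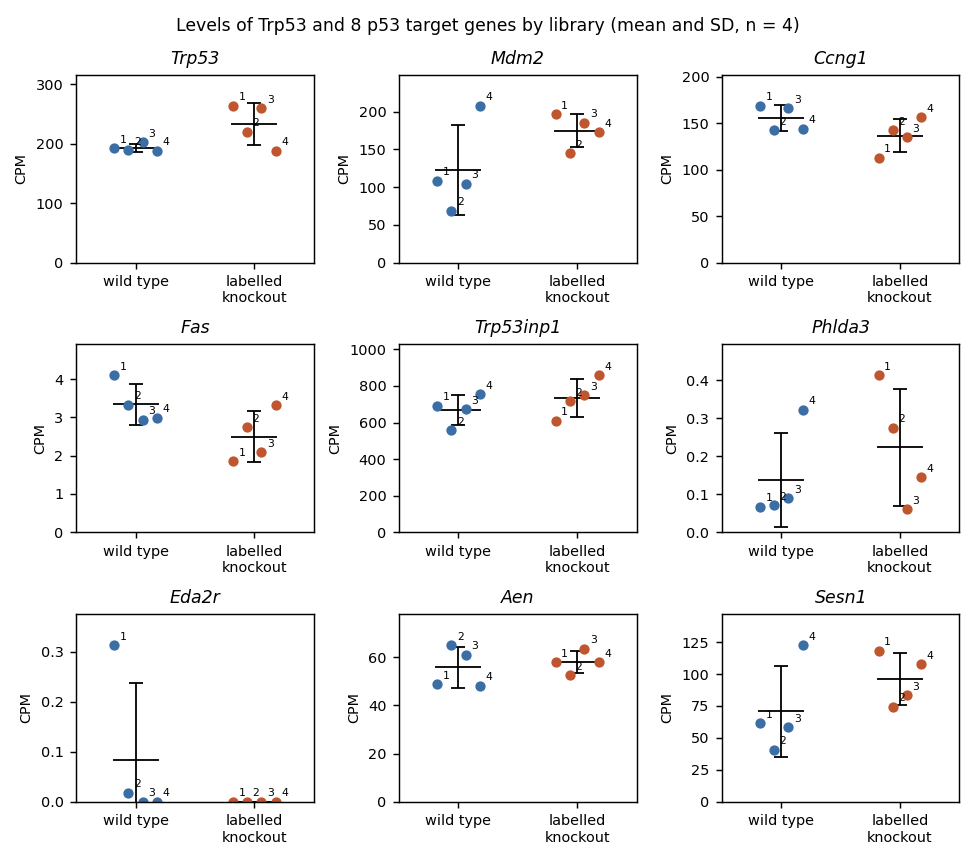
CPM (vertical axes, each from 0) of the 9 genes in each library; points are libraries with their replicate number, bars the mean and SD of 4. Mdm2 and Sesn1 have one high wild type library, number 4, at 208 and 123 CPM, among otherwise lower wild type values, and the groups overlap in every panel.

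None of the 7 tested genes passed the test between the groups. With p-values adjusted over all genes, edgeR called 0 of 7, and 0% of the 18884 genes tested (smallest adjusted p = 0.391; DESeq2 called 6 of all genes and none of these 7, limma-voom called 0). The fold changes of 5 were positive and of 2 negative, with a median log2 fold change of 0.13 for labelled knockout over wild type beside 0.0033 over all genes tested. At an unadjusted p below 0.05 there was 1 of 7, Trp53, against 12.6% of all genes (5.53% higher and 7.11% lower in labelled knockout). The groups overlapped for all 9 genes, while 6.79% of the genes tested had groups that did not overlap (2.62% higher and 4.17% lower in labelled knockout).

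Trp53 (ENSMUSG00000059552.13, chromosome 11, 69580359 to 69591873, plus strand, mm10) was very even in wild type, at 193, 189, 203 and 188 CPM in libraries 1 to 4. The libraries labelled knockout held 264, 221, 260.1 and 188 CPM. Labelled knockout 1, 2 and 3 lay above every wild type library, while labelled knockout 4 matched the lowest of them. The means were 193 ± 6.80 and 233 ± 35.7 CPM (SD, n = 4), and the log2 fold change was 0.27 ± 0.12 (SE; 95% interval 0.013 to 0.53, unadjusted p = 0.0415, adjusted p = 0.391 by edgeR). Labelled knockout 1 and 3, the highest for Trp53, were also the lowest for the S phase and mitosis markers, at 2365 and 1687 CPM summed; the part of cell cycle state in this difference was not tested. Counts of the processed pseudogene Trp53-ps came to between 0.200% and 0.803% of those of Trp53, under counting in which fragments with several alignments add to each gene they hit. With 54.5% GC, Trp53 lay above 76.9% of expressed genes. Its log2 fold change was 0.20 ± 0.13 with the GC trend removed, 0.16 ± 0.15 with wild type 4 also left out, 0.18 ± 0.13 under upper quartile scaling, 0.17 ± 0.11 by limma-voom and 0.46 ± 0.10 in the 5 libraries with under 5 CPM of Y-linked transcripts. None of these passed (adjusted p between 0.0928 and 0.734 over all alternatives, edgeR, DESeq2 and limma). Wrap53, the neighbour that runs the other way and whose antisense transcripts have been tied to Trp53, had a log2 fold change of 0.04 ± 0.12.

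Mdm2, the ligase and feedback target (ENSMUSG00000020184.15, chromosome 10, 117688875 to 117710758, minus strand), varied 3.02-fold between its highest and lowest library. Wild type 1 to 4 held 108, 68.8, 105 and 208 CPM. Labelled knockout 1 to 4 held 197, 145, 186 and 173 CPM. Wild type 4 was the highest of all 8 libraries, and the other wild type libraries were lower than every library labelled knockout. With means of 122 ± 59.6 and 175 ± 22.4 CPM (SD, n = 4) the log2 fold change was 0.52 ± 0.28 (SE; 95% interval -0.12 to 1.15, adjusted p = 0.456 by edgeR). Without wild type 4 it was 0.90 ± 0.17 with an adjusted p of 0.0493 (edgeR), in a fit that called 1.86% of all genes (1.84% higher and 0.0256% lower). Without wild type 2, the lowest library, the log2 fold change of Mdm2 was 0.35 ± 0.25 (adjusted p = 0.746 by edgeR). Its adjusted p lay between 0.0020 and 0.749 over all alternatives run.

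Sesn1, a sestrin that restrains mTORC1 and is also a FOXO target (ENSMUSG00000038332.13, chromosome 10, 41809935 to 41908424, plus strand), had a similar profile. Its levels were 61.4, 40.6, 58.1 and 123 CPM in wild type 1 to 4. They were 118, 74.5, 83.5 and 108 CPM in labelled knockout 1 to 4. Again wild type 4 was the highest library and wild type 2 the lowest, a 3.02-fold span. The groups overlapped only through wild type 4. That library also held the most erythroid marker RNA (8640 CPM summed), while labelled knockout 1, next highest for Sesn1, held the least (268 CPM). The part of erythroid RNA in these values was not tested. The log2 fold change was 0.44 ± 0.31 (SE, adjusted p = 0.540 by edgeR) with all libraries and 0.85 ± 0.20 (adjusted p = 0.0517) without wild type 4. Without wild type 2, the lowest library, it was 0.27 ± 0.28.

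The fold changes of Mdm2 and Sesn1 were also read with further libraries or terms changed. Wild type 4 was the only library through which the groups overlapped for both genes. The further terms were combined with leaving out this library and no other. A small adjusted p in such a fit follows in part from that choice, so it cannot decide whether the groups differ. With wild type 4 left out and a term for Y-linked transcripts in the model, Mdm2 had a log2 fold change of 0.99 ± 0.11 (adjusted p = 0.00204 by edgeR) and Sesn1 one of 0.92 ± 0.17 (adjusted p = 0.00868), while 16.0% of all genes passed (11.9% higher and 4.04% lower). Neither passed with this term and all 8 libraries (adjusted p = 0.146 and 0.268 by edgeR). In both fits with this term, wild type 2 was the only wild type library above 5 CPM of Y-linked transcripts. It was also the lowest library for both genes. In the 5 libraries with under 5 CPM of Y-linked transcripts (2.73 CPM or less; wild type 1, 3 and 4 against labelled knockout 1 and 3) Mdm2 had 0.47 ± 0.32 and Sesn1 0.34 ± 0.37 (adjusted p = 0.525 and 0.697 by edgeR). The libraries also differed in the balance of GC-rich and GC-poor transcripts: the median log2 deviation of the GC-richest quintile of genes minus that of the GC-poorest quintile was -0.22, -0.48, -0.08 and 0.06 in wild type 1 to 4 and 0.29, 0.03, 0.29 and 0.04 in labelled knockout 1 to 4. Mdm2 and Sesn1 themselves had 50.1% and 47.0% GC, above 52.3% and 32.7% of expressed genes. With the GC trend removed from each library and wild type 4 left out, both passed, at 0.92 ± 0.18 and 0.91 ± 0.19 (adjusted p = 0.0213 each by edgeR), in a fit that called 6.41% of all genes (5.86% higher and 0.545% lower). With the GC trend removed and all 8 libraries kept, neither passed, at 0.53 ± 0.28 and 0.48 ± 0.30 (adjusted p = 0.494 and 0.554 by edgeR).

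**Figure D2:**
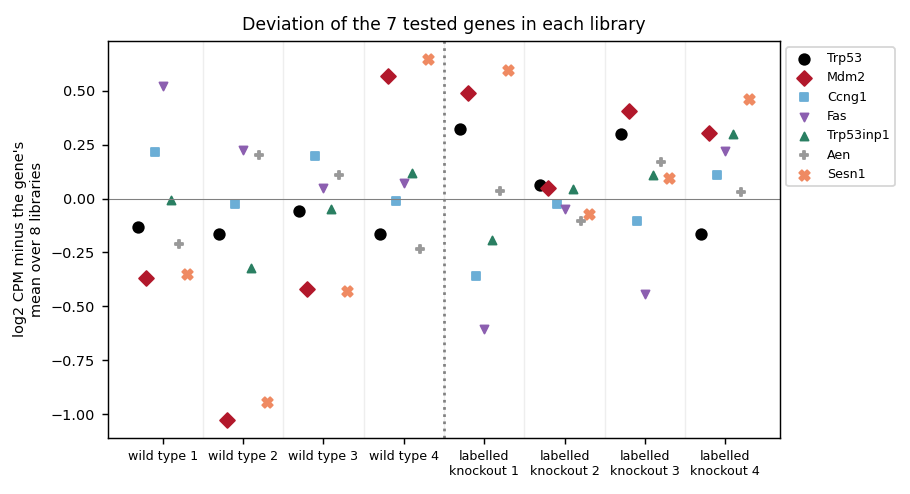
Log2 CPM of each tested gene minus its mean over the 8 libraries (vertical axis), by library; symbols are genes and the dotted line parts the groups. Mdm2 and Sesn1 lie furthest down in wild type 2, at -1.03 and -0.95, and furthest up in wild type 4, at 0.57 and 0.65, while Trp53 stays between -0.17 and 0.32.

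**Figure D3:**
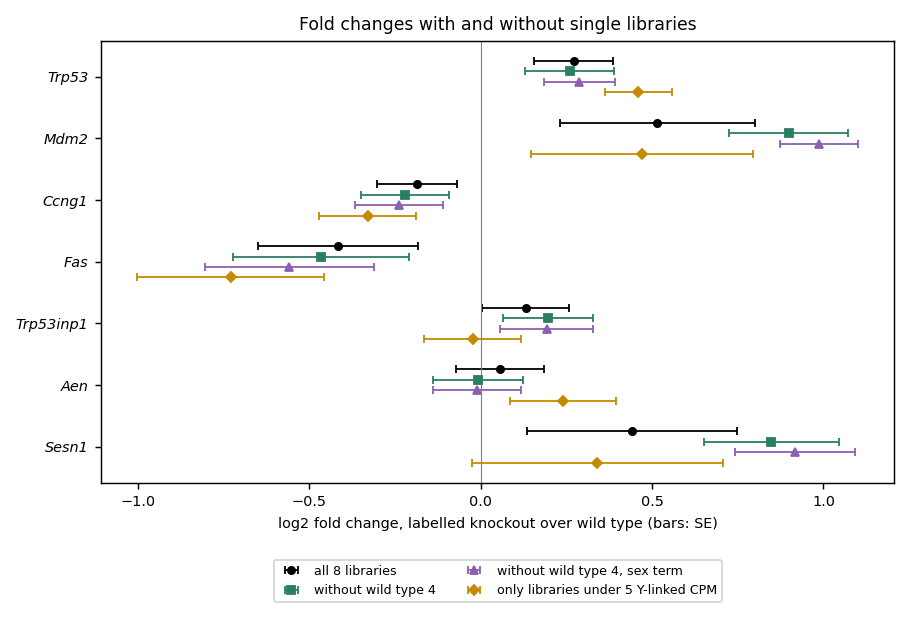
Log2 fold change of the 7 tested genes, labelled knockout over wild type (horizontal axis, bars SE), in all 8 libraries and in 3 other fits. Mdm2 and Sesn1 move from 0.52 and 0.44 to 0.90 and 0.85 when wild type 4 is left out, while Trp53 lies between 0.26 and 0.46 in these 4 fits; fits not drawn put Trp53 as low as 0.16.

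Ccng1, cyclin G1, which brings a phosphatase to MDM2 and so acts in the same feedback (ENSMUSG00000020326.7, chromosome 11, 40748552 to 40755311, minus strand), had a fold change opposite in sign to that of Mdm2, with neither passing the test. Wild type 1 to 4 held 169, 143, 166 and 144 CPM, and labelled knockout 1 to 4 held 113, 142, 135 and 157 CPM. Labelled knockout 1, 2 and 3 lay below every wild type library, the second only just, while labelled knockout 4 lay among them. The log2 fold change was -0.19 ± 0.12 (SE; 95% interval -0.45 to 0.078, adjusted p = 0.504 by edgeR). Without labelled knockout 1 it was -0.12. Ccng1 has 37.4% GC, above 0.876% of expressed genes. Its log2 fold change was -0.13 ± 0.15 with the GC trend removed, -0.22 ± 0.13 without wild type 4 and -0.06 ± 0.17 with both changes, and the part of GC content was not tested.

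Fas, the death receptor of the TNF receptor family (ENSMUSG00000024778.13, chromosome 19, 34290666 to 34327772, plus strand), was low in all libraries. It had 4.1003, 3.33, 2.95 and 2.99 CPM in wild type 1 to 4, from 132 to 189 counts. It had 1.86, 2.75, 2.08 and 3.32 CPM in labelled knockout 1 to 4, from 90 to 184 counts. Labelled knockout 1, 2 and 3 were below all wild type libraries and labelled knockout 4 among them, as for Ccng1. The log2 fold change was -0.42 ± 0.23 (SE; 95% interval -0.94 to 0.10, adjusted p = 0.461 by edgeR). Natural killer cells also express Fas. The 8 natural killer markers summed to between 30.8 and 42.8 CPM in wild type and to 11.4, 26.5, 8.23 and 28.0 CPM in labelled knockout 1 to 4, lowest in the same libraries as Fas, none of the markers being at 0 throughout; 7 of 8 had a negative fold change and 0 passed. Summed erythroid, neutrophil, monocyte and S phase and mitosis markers were also lowest in labelled knockout 1 and 3. Those of T cells ran from 28.5 to 37.3 CPM in wild type and from 20.9 to 32.4 CPM in labelled knockout. The part of any of these in the values of Fas was not tested.

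Trp53inp1 (ENSMUSG00000028211.11, chromosome 4, 11156431 to 11174379, plus strand) had 692, 556, 674 and 756 CPM in wild type and 609, 717, 749.9 and 858 CPM in labelled knockout 1 to 4. The groups overlapped widely. The log2 fold change was 0.13 ± 0.13 (SE; 95% interval -0.15 to 0.42, adjusted p = 0.654 by edgeR), and it lay between 0.049 without labelled knockout 4 and 0.20 without labelled knockout 1. Aen, a nuclease that promotes apoptosis downstream of p53 (ENSMUSG00000030609.18, chromosome 7, 78895854 to 78911209, plus strand), was the most even of the targets, with 48.9, 65.1, 61.0 and 48.1 CPM in wild type and 58.05, 52.6, 63.6 and 57.9 CPM in labelled knockout. Its log2 fold change was 0.06 ± 0.13 (SE, adjusted p = 0.867 by edgeR), with a 95% interval of the ratio from 0.852 to 1.27. The sign of this small value turned under several alternatives, upper quartile scaling among them (-0.04).

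The 2 genes under the filter were read as counts. Phlda3, a repressor of the kinase AKT (ENSMUSG00000041801.5, chromosome 1, 135766119 to 135769136, plus strand), had 3, 4, 4 and 18 counts in wild type 1 to 4 and 20, 15, 3 and 8 counts in labelled knockout 1 to 4. The groups overlapped (0.137 ± 0.124 and 0.223 ± 0.154 CPM, SD, n = 4; exact permutation test, two-sided, p = 0.4, where 4 against 4 allows no p below 0.0286). Wild type 4 was again the high wild type library. Eda2r, a receptor of the TNF receptor family for ectodysplasin (ENSMUSG00000034457.10, chromosome X, 97333840 to 97377216, minus strand), had 14 counts in wild type 1, 1 count in wild type 2 and 0 in the other 6 libraries. A count of 0 allows up to 3 counts per library, which was 0.0538 to 0.0669 CPM in those libraries. No fold is given, since 14 of the 15 counts came from 1 library.

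The rest of the pathway was read from lists of 55 genes, of which 49 passed the filter. None passed the adjusted test in either direction by edgeR, 9 (18.4%, against 12.6% of all genes) had an unadjusted p below 0.05, and 30 had positive and 19 negative fold changes. Their median log2 fold change was 0.11. The groups did not overlap for 4 of the 49 (8.16%, against 6.79% of all genes): Ercc5 was higher and Chek1, Chek2 and Psrc1 were lower in every library labelled knockout. Among kinases and cofactors that activate p53, 3 of 9 tested were positive and 6 negative (median -0.18). Chek2, a checkpoint kinase that phosphorylates p53, had 35.7, 30.3, 29.8 and 32.3 CPM in wild type and 21.3, 25.1, 23.0 and 26.2 CPM in labelled knockout. Its log2 fold change was -0.42 ± 0.12 (adjusted p = 0.391 by edgeR). Chek1, the kinase of the replication checkpoint, had -0.56 ± 0.25, with 20.02 and 11.9 CPM in labelled knockout 1 and 3 and 26.6 and 31.1 CPM in 2 and 4. Chek1 and Chek2 were both lowest in labelled knockout 1 and 3. The summed S phase and mitosis markers were lowest there too, at 2365 and 1687 CPM against 3460 to 4024 CPM in wild type. The part of cell cycle state in these differences was not tested. Cdkn2a, whose ARF product inhibits MDM2, was under the filter.

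The list for restraint of p53 also counted Wrap53 (log2 fold change 0.04 ± 0.12), described above only as a neighbour of Trp53. Of the 7 genes in this list, 6 were positive (median 0.11). Mdm4, the partner of MDM2, was the exception, with 173 ± 29.5 CPM in wild type and 150 ± 21.4 CPM in labelled knockout (log2 fold change -0.21 ± 0.15, adjusted p = 0.542 by edgeR). Usp7, a deubiquitinase of MDM2 and p53, had 0.17 ± 0.11 and Cop1, another ubiquitin ligase of p53, 0.18 ± 0.12. None of these passed.

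Targets of cell cycle arrest had no common sign, 5 of 9 being positive (median 0.14). Cdkn1a, the CDK inhibitor p21 and the best known arrest target, had 23.5, 17.5, 23.0 and 23.6 CPM in wild type and 17.2, 22.9, 12.4 and 19.3 CPM in labelled knockout (log2 fold change -0.29 ± 0.19, adjusted p = 0.531 by edgeR). So the values of p21 and Mdm2 pointed in different directions, and neither passed. Psrc1 had -0.61 ± 0.22 and the polo-like kinase Plk2 0.54 ± 0.20 (log2 fold change ± SE).

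Of the apoptosis targets 7 of 11 were positive (median 0.35). Bax, which permeabilises the mitochondrial membrane, had 52.7, 48.2, 66.8 and 90.5 CPM in wild type and 107, 71.0, 78.9 and 79.7 CPM in labelled knockout. As for Mdm2, only wild type 4 overlapped with the libraries labelled knockout (log2 fold change 0.38 ± 0.21, adjusted p = 0.450 by edgeR). Ei24 had 0.53 ± 0.20, with 9.05, 7.81, 9.02 and 13.1 CPM in wild type and 16.8, 11.2, 15.1 and 13.2 CPM in labelled knockout. Bbc3, the BH3-only protein PUMA, was scarce at 0.601 ± 0.359 and 0.921 ± 0.548 CPM. Targets of repair and metabolism were positive in 8 of 12 (median 0.06); Ercc5, an endonuclease of nucleotide excision repair, had 0.52 ± 0.17 and Xpc, which recognises the lesion, 0.31 ± 0.13.

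Without wild type 4 the median of the 49 genes was 0.08. Of these genes, 1 passed without that library by edgeR, the peptide transporter gene Tap1 (log2 fold change 1.01 ± 0.16, adjusted p = 0.0493), against 1.86% of all genes. With the term for Y-linked transcripts as well, 11 passed against 16.0% of all genes. Of these, 8 were higher in labelled knockout, among them Gadd45a (1.63 ± 0.25), Ccng2 (1.11 ± 0.22), Bax (0.64 ± 0.14) and Sesn2 (0.83 ± 0.22), and Atm, Chek2 and Psrc1 were lower (-0.54 ± 0.12, -0.44 ± 0.13 and -0.78 ± 0.16).

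**Figure D4:**
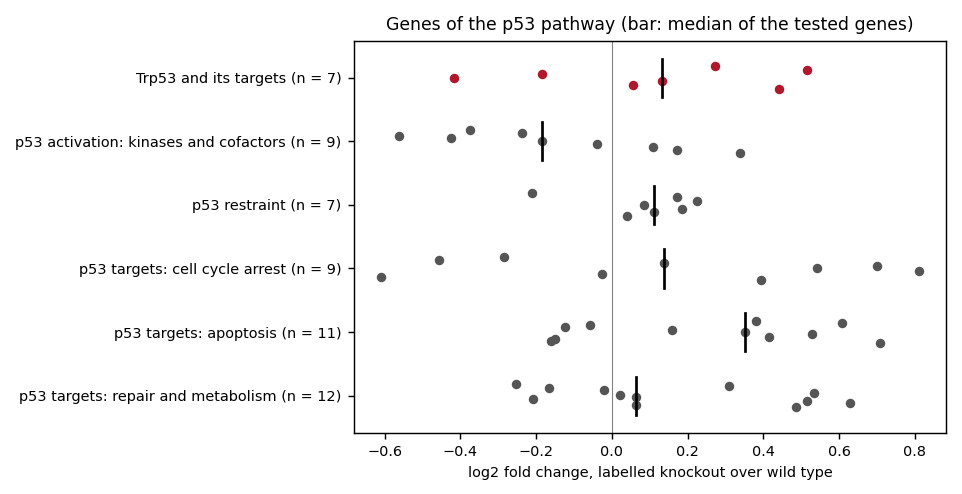
Log2 fold change, labelled knockout over wild type (horizontal axis), of Trp53 and its 6 tested targets and of the tested genes of 5 pathway lists; each point is a gene and the bar is the median. Every list drawn spans 0, with medians from -0.18 for the activating kinases and cofactors to 0.35 for the apoptosis targets. The p53 family list, with 1 tested gene (Trp63, 1.77 ± 1.01), is not drawn.

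The genes with profiles most like those of Trp53 and Mdm2 were sought among expressed genes with a similar range over the 8 libraries. Likeness was the mean absolute difference of log2 CPM after each gene's own mean was subtracted. For Trp53 the nearest of 3743 genes were Map3k5, Pqlc2 and Bud13, at 0.0380, 0.0401 and 0.0447, beside a median of 0.211. For Mdm2 the nearest of 2205 genes were Inpp5e, Gabpb1 and Clpx, at 0.0340, 0.0390 and 0.0536, beside a median of 0.232. Inpp5e, for example, had 10.6, 7.05, 10.2 and 20.7 CPM in wild type and 20.3, 15.3, 18.4 and 17.7 CPM in labelled knockout, so it shared the high wild type 4 and the low wild type 2. Sesn1 came at place 142 among the 2205, at 0.110.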

How the data were processed

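Raw fragment counts per gene were deposited by the authors. Per the file headers they came from featureCounts 2.0.1 over GENCODE M25 exons, counting fragments and every alignment of multi-mapping ones, with no strand setting given. The exon lengths (unit: other) are per the file headers too. The submitters' processing notes name the mm10 build, STAR 2.7.7a and, with no role given, GATK 4.1.9.0. The table held 0 columns of other samples. Symbols from GENCODE M21 (same build) matched 55141 of 55487 identifiers. No member shared exon bases with another gene. No libraries of a group were duplicates: chi-square over degrees of freedom was at least 29.5 in each of the 12 pairs.

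Genes passing filterByExpr (18884) were TMM-scaled and tested with edgeR 4.0.16 in R 4.3.3 (robust quasi-likelihood F test, genotype only, two-sided, Benjamini-Hochberg threshold 0.05). The method was also run on counts simulated from the means, library sizes and dispersions of these data. Those counts were drawn for each gene independently, so they held no outlying library, sex difference or GC trend. Alternatives used DESeq2 1.42.0, limma 3.58.1, other scalings and filters, left-out libraries, a replicate block and a sex term (Y-linked counts above 5 CPM). Fits restricted to libraries below that level, or with a GC trend removed (loess, span 0.5), were chosen after seeing the data. Of the left-out libraries, only wild type 4 was combined with the sex term or the GC trend.

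The members, lists and alternatives were chosen with earlier results of these data known. All members were named, plus, per pathway list, genes past the test or else the 2 with the smallest p, and Cdkn1a, Bax, Bbc3 and Mdm4. Profile neighbours had at least 5 CPM and a range within 1.5-fold. Wrap53, Trp53-ps, Cdkn2a and the pathway genes that passed only in an alternative fit were named outside this rule, after their values were seen.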

Additional observations from a re-analysis of the deposited data

Results flagged for a closer look

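In 2 of 17 groups of 4 libraries, 1 library stood apart from the others by Dixon's criterion at the 95% level. Chance flags about 1 in 20 such groups where values are normally distributed. Both flagged groups held few counts, some of them tied or 0, so this rate need not hold for them. Phlda3 had 0.323 CPM in wild type 4, against 0.0672 to 0.0893 CPM in the other wild type libraries. Eda2r had 0.314 CPM in wild type 1, with 1 count in wild type 2 and none in wild type 3 and 4.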

How the results depend on the processing

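Over 21 alternatives, 135 of 147 fold changes of the 7 tested genes kept their direction and side of the threshold, 5 passed it and 7 changed sign. With each library left out in turn, the genes called ranged from 0 to 363, the other pathway genes called from 0 to 1, the median of the 7 genes from 0.058 to 0.20, Mdm2 from 0.35 to 0.90, Sesn1 from 0.27 to 0.85, Trp53 from 0.19 to 0.36, Trp53inp1 from 0.049 to 0.20, Ccng1 from -0.26 to -0.12, Fas from -0.58 to -0.30 and Aen from -0.0079 to 0.17; the highest counts and the Mdm2 call came without wild type 4. With the sex term and wild type 4 left out, 3112 genes and 11 pathway genes were called, Mdm2 had 0.99, Sesn1 0.92 and Aen -0.0099. With the GC trend removed Aen had -0.074, and with wild type 4 also left out 1245 genes and 5 pathway genes were called, Mdm2 had 0.92, Sesn1 0.91 and Aen -0.18. With all 8 libraries and the GC trend removed, 0 genes were called. In the libraries under 5 Y-linked CPM the median was 0.24 and Trp53inp1 had -0.023. Upper quartile scaling gave a median of 0.052 and Aen -0.045, and moved the median of all genes from 0.0033 to -0.09. DESeq2 called 6 genes, and limma-voom gave a pathway median of -0.00020. The cause of these changes was not tested.

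Whether the replicate numbers pair the samples was not settled. Same-numbered libraries correlated at 0.098, 0.321, 0.196 and -0.107 for numbers 1 to 4. The same number was the closest partner for wild type 2 and 3, but not for 1 and 4. With the replicate block, 0 genes were called, and the log2 fold changes were 0.26 for Trp53, 0.63 for Mdm2 and 0.54 for Sesn1. Depth limits Phlda3 and Eda2r, and floors cover counting error only.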

Other observations

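The p53 family members were close to absent: Trp63 stood at 0.172 ± 0.217 CPM (SD, n = 4) across wild type libraries and at 0.583 ± 0.480 CPM across those labelled knockout, and Trp73 was under the count filter. The log2 fold change of Trp63 was 1.77 ± 1.01 (SE, adjusted p = 0.468 by edgeR), and its highest library was labelled knockout 2, at 1.28 CPM. Trp53cor1, a long non-coding RNA gene next to Cdkn1a that was looked up after its values were seen, had 0.314, 0.617, 0.156 and 0.0896 CPM in wild type 1 to 4 and 0.268, 0.550, 0.481 and 0.180 CPM in labelled knockout 1 to 4, with overlapping groups.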
